A study of Mus musculus with 8 samples.

Results

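Crypts cut out of intestinal sections are meant to be epithelium, yet each crypt sits in a sleeve of fibroblasts, smooth muscle strands, capillaries and immune cells. The transcripts described here are 47 genes of that surrounding tissue, chosen by name from the probes of the arrays: 10 fibroblast and matrix genes, 8 smooth muscle genes, 10 endothelial genes, 6 lymphocyte genes, 7 myeloid genes, 5 genes shared by leukocytes and the glial gene S100b. They were read by 62 of 39429 probes and make up 47 of the 30325 gene names on the arrays. The data are 8 single-colour microarrays, 1 per mouse. A first set of 4 arrays came from mice fasted for 24 h and the other 4 from fed mice. All 8 mice were Lgr5EGFP-IRES-CreERT2/+, a knock-in that drives EGFP and an inducible Cre from the Lgr5 locus, active in crypt base stem cells. They were 4 to 6 weeks old, with 2 labelled males and 2 labelled females per group. After the 24 h, every mouse was injected in the tail vein with 80 mg/kg etoposide, which poisons topoisomerase II and breaks DNA, and was then caged alone with moistened food. Jejunum was taken 3 h later, fixed in methacarn and embedded in paraffin, and lower crypts were laser captured. No mouse without etoposide was studied, and fasting cannot be told apart from the food offered after it.

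In the small intestine, fibroblasts under the epithelium lay down collagen and supply WNT ligands and BMP inhibitors that maintain the stem cells. Thin smooth muscle strands run up each villus from the muscularis mucosae, fenestrated capillaries take up nutrients, and resident macrophages engulf dying cells. Intraepithelial T cells lie between the epithelial cells themselves. In RNA of a whole capture, fewer cells of a type and less RNA per cell cannot be told apart.

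Levels are log2 processed signal minus the 75th percentile of the same array, so 0 is the signal of a gene at that percentile. A probe counted as detected on an array where the scanner software called it well above background, and a gene was tested through its brightest probe among those detected on 4 or more of the 8 arrays. The share of probes detected per array was 60.9% ± 5.26 (SD, n = 4) on fasted arrays and 58.3% ± 4.70 (SD, n = 4) on fed arrays (exact 2-sided permutation p = 0.486). It was between 53.2% and 55.6% on 3 arrays, namely fasted replicate 3 and fed replicates 1 and 2, and between 60.9% and 65.4% on the other 5. Fasted replicate 3 also stood apart across genes, with correlations of 0.827 to 0.925 to the other arrays, and no other array was scanned on its day, the later one. Fed replicate 4, labelled female, lacked Xist signal and had the Y-linked Eif2s3y detected, so its sex label goes against its transcripts. Markers of the captured epithelium were present: all 16 listed epithelial genes were detected on all 8 arrays, with a median level per array within -0.13 to 0.36 of each gene's mean.

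Transcripts of cells outside the epithelium were detected in every capture. Between 38 and 43 of the 47 genes had a detected probe on any one array, with 42, 43, 40 and 40 on the fasted arrays and 39, 40, 41 and 38 on the fed arrays. All 8 smooth muscle genes, all 7 myeloid genes and all 5 pan-leukocyte genes were detected on all 8 arrays, and so were 8 of 10 endothelial and 5 of 10 fibroblast and matrix genes. Lymphocyte genes were the exception, with 2 to 4 of 6 detected per array. Of the defining T cell genes, Cd3e was detected on every array, while Cd3g, another CD3 chain, and Gzmb, the killing enzyme granzyme B, were detected on none. Cdh5, the cadherin of endothelial junctions, was detected on 1 array, which was a fasted one. Cd79a, part of the B cell receptor, was detected by either of its probes on 1 fasted and 2 fed arrays. The filter passed 41 of the 47 genes and left out Lum, Cdh5, Cd3g, Cd8a, Gzmb and Cd79a.

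The main comparison asked whether the level of these transcripts differed between fasted and fed mice 3 h after etoposide. None of the 41 tested genes passed an adjusted p of 0.05 in limma, nor did any of the 19528 genes tested (0.00% called), the lowest adjusted p being 0.788. At an unadjusted p of 0.05, 2 of the 41 genes passed, Pdgfra and Pdgfrb, both higher in fasted mice, but Pdgfra entered the test through its fasted arrays only. Of all genes tested, 5.95% passed at that level, with 3.93% higher and 2.02% lower. The 4 fasted arrays lay clear of the 4 fed arrays for Pdgfrb alone, and this held for 4.97% of all genes (2.99% higher and 1.98% lower in fasted mice). Of the 41 genes, 27 were lower on average in fasted mice (65.9%, against 55.5% of all genes tested), and their median log2 difference was -0.12, against -0.06 over all genes. Class medians of the difference were -0.004 for fibroblast and matrix genes, -0.005 for smooth muscle, -0.18 for endothelial, -0.33 for myeloid, -0.29 for pan-leukocyte and 0.54 for the 2 tested lymphocyte genes, and the glial gene S100b differed by 0.02.

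**Figure D1:**
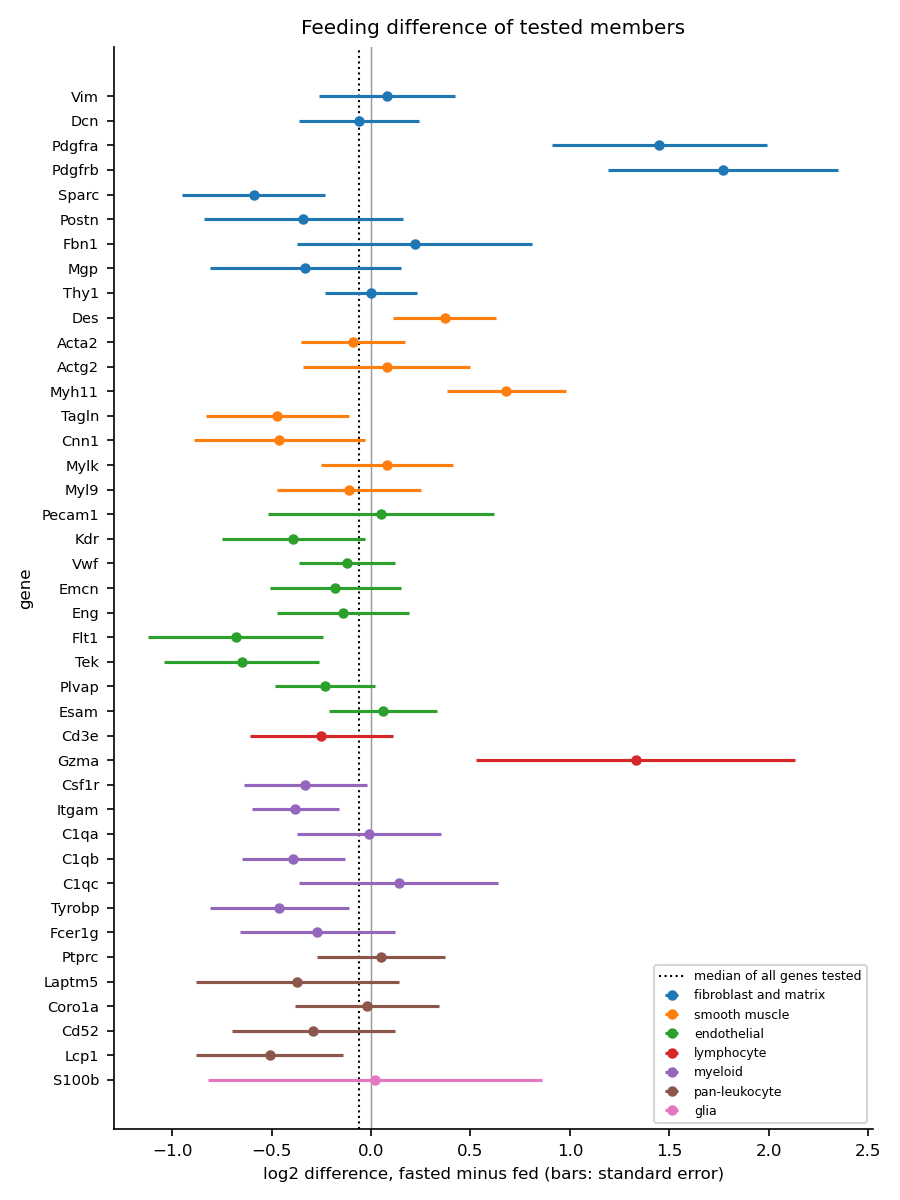
Each point is the log2 difference, fasted minus fed, of 1 of the 41 tested genes with its standard error as a bar, coloured by class; the dotted line is the median of all genes tested (-0.06). Pdgfrb at 1.77 and Pdgfra, whose fed values lie below detection, are the 2 points farthest from 0, and no gene passed the adjusted threshold.

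Class levels were spread widely within each group, and the groups overlapped for every class. The level of a class on an array was taken as the median, over its tested genes, of the gene's level minus its mean over the 8 arrays. For smooth muscle this level was 0.81, 0.31, -0.55 and -0.32 on fasted replicates 1 to 4, and 0.16, 0.05, 0.39 and -0.59 on fed replicates 1 to 4. For fibroblast and matrix genes it was 0.33, -0.21, 0.35 and -0.48 on the fasted arrays, and 0.35, 0.54, 0.09 and -0.86 on the fed arrays. Both classes were thus at their lowest on fed replicate 4, where 7 of 9 fibroblast and 5 of 8 smooth muscle genes had their lowest value (14.5% of all genes did). Smooth muscle was highest on fasted replicate 1, where 5 of 8 genes peaked (10.0% of all genes did). Endothelial genes were arranged otherwise: their level was -0.49, 0.04, -0.45 and 0.17 on the fasted arrays, and 0.25, -0.20, -0.05 and 0.34 on the fed arrays. Fed replicate 4, the lowest array for the stromal and muscle members, was thus the highest for these 9 endothelial members. This level rests on the brightest probe of each gene. At their other probes, Kdr was lowest on fed replicate 4 and Vwf highest. The 10 tested genes of a further endothelial and lymphatic list were arranged otherwise, at 0.36, 0.04, 0.42 and -0.08 on the fasted arrays and 0.09, 0.23, -0.10 and -0.49 on the fed arrays, lowest on fed replicate 4.

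**Figure D2:**
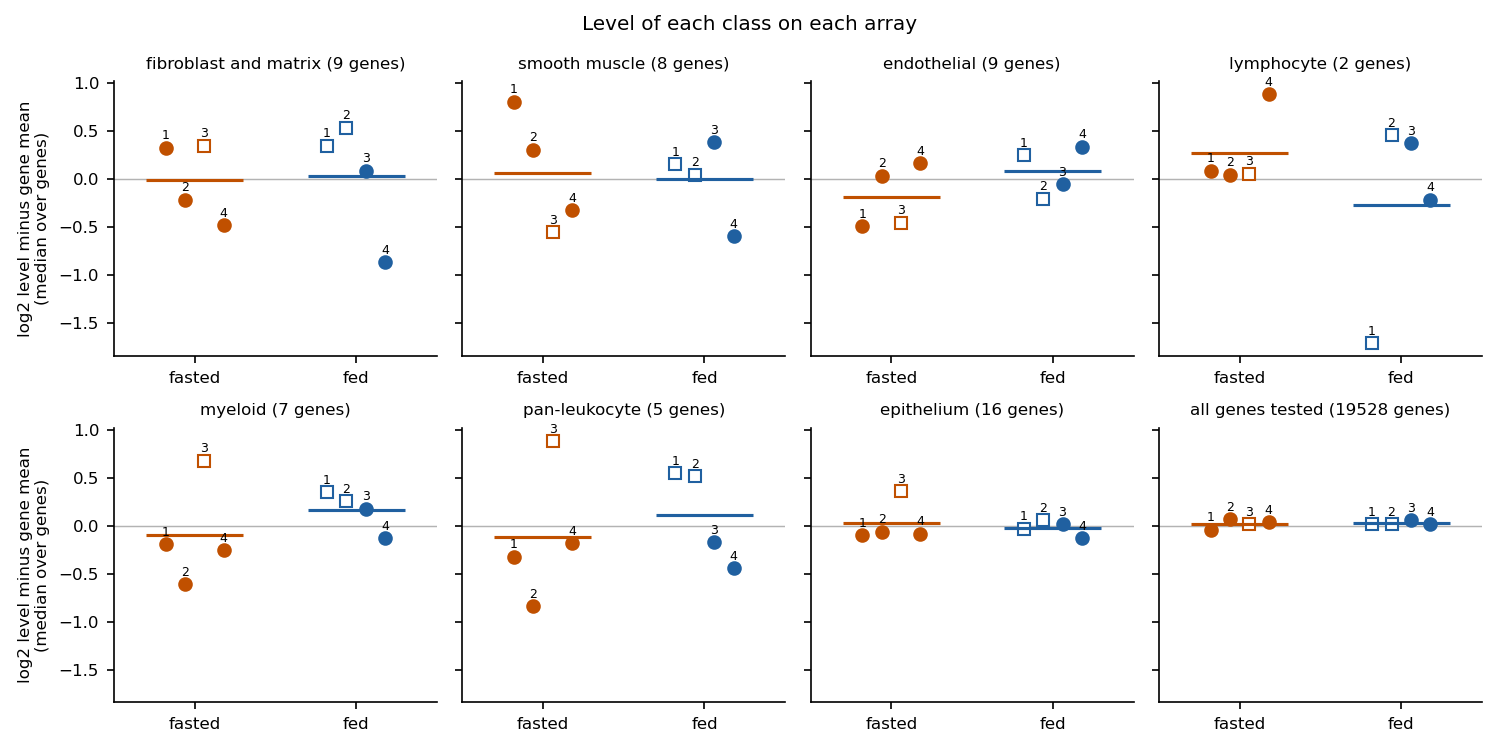
Each point is 1 array (number: replicate), with fasted arrays left and fed arrays right; the vertical axis is the median over a class of log2 level minus the gene's mean over 8 arrays, and the line is the group mean. Open squares are the 3 arrays with under 60% of probes detected. Groups overlap in every panel, and the 3 squares are the highest points among pan-leukocyte and myeloid genes, while epithelial genes stay between -0.13 and 0.36.

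A group of 8 leukocyte genes was highest on the arrays with the smallest share of probes detected. The pan-leukocyte level was -0.32, -0.84, 0.88 and -0.18 on the fasted arrays, and 0.55, 0.52, -0.17 and -0.44 on the fed arrays. The 3 high values belong to fasted replicate 3 and fed replicates 1 and 2, the arrays with under 60% of probes detected. Of 14 tested leukocyte genes, 8 were higher on each of these 3 arrays than on any of the other 5: C1qa, C1qb, C1qc, Tyrobp, Fcer1g, Laptm5, Cd52 and Lcp1. The same held for 6.89% of all genes, for 11.9% of genes with a mean level above 0, and for 5 of 16 epithelial genes. In the further leukocyte lists it held for 3 of 12 tested macrophage and dendritic cell genes and 3 of 7 MHC class II genes, and for none of 11 T cell and cytotoxic, 8 B and plasma cell and 7 granulocyte and mast cell genes. This split of the arrays was chosen after their values were seen, and what part the detected share had in the levels was not tested. Only 1 of 26 stromal and endothelial genes, the matrix calcification inhibitor Mgp, showed it. Over all 14 leukocyte genes the median difference, fasted minus fed, was -0.28, with 11 of 14 lower. It was -0.05 without fasted replicate 2, -0.15 without fed replicate 1 and -0.18 without fed replicate 2. Among the 5 arrays with over 60% detected it was -0.20 (3 fasted, 2 fed arrays), and among the other 3 it was 0.29 (1 fasted, 2 fed arrays). The only fasted array of that set, fasted replicate 3, was the highest array for 8 of the 14 genes. These 2 sets therefore cannot show whether the direction of the leukocyte difference holds. Within the 3 slides that carried a fasted and a fed array, the leukocyte median was -0.64, -0.59 and 0.08. These slides set fasted replicates 1, 2 and 4 against fed replicates 1, 3 and 4. Sex was not matched on all of them: fasted replicate 2 is labelled male and fed replicate 3 female. Fed replicate 4 is the array whose transcripts go against its sex label.

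**Figure D3:**
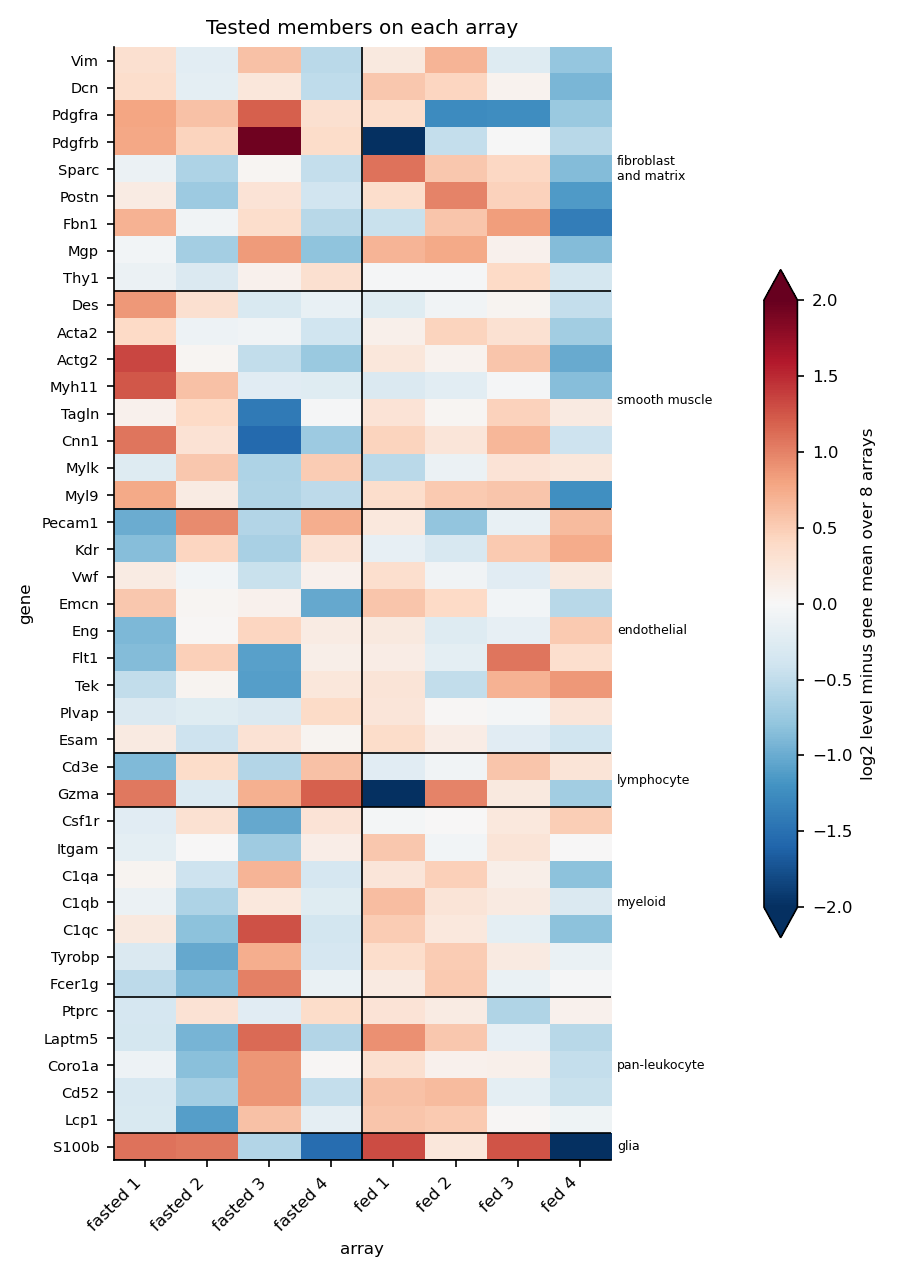
Rows are the 41 tested genes by class and columns the 8 arrays, fasted left; colour is log2 level minus the gene's mean, cut at 2 either way. Most pan-leukocyte and C1q rows are red on fasted 3, fed 1 and fed 2, most fibroblast rows are blue on fed 4, and no class changes colour at the line between the groups.

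Of 9 tested fibroblast and matrix genes, 4 were higher and 5 lower on average in fasted mice (55.6% lower, against 55.5% of all genes). Pdgfra and Pdgfrb are the receptors for platelet-derived growth factors; Pdgfra marks fibroblasts, including the subepithelial ones next to crypts, and Pdgfrb marks pericytes and fibroblasts. Pdgfrb levels were -2.28, -2.62, -1.11 and -2.69 in fasted mice, and -5.55, -3.54, -3.06 and -3.62 in fed mice. All 4 fasted arrays were above all 4 fed ones, and the probe was detected on 4 fasted and 2 fed arrays. The means were -2.17 ± 0.73 in fasted and -3.94 ± 1.1 in fed mice (SD, n = 4 each), a log2 difference of 1.77 (SE 0.58, limma adjusted p = 0.788). The difference was 3.28, 0.44 and 0.94 within the 3 shared slides, and without fed replicate 1 it was 1.30. The 3.28 is set against fed replicate 1, whose -5.55 lay below the lowest level that counted as detected on that array (-3.45). The log2 difference was 0.65 with normexp background correction and 2.99 in the authors' deposited matrix.

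Pdgfra levels were -3.04, -3.24, -2.63 and -3.50 in fasted mice, and -3.48, -5.09, -5.07 and -4.57 in fed mice. Its probe (chr5:75593888-75593947, mm9) was detected on 4 fasted arrays and no fed array. Under the main processing its bound was at least 1.59-fold higher in fasted mice, and that bound was not tested. With normexp background correction the log2 difference was 0.38, which is smaller than that bound. Pdgfra passed the filter through its fasted arrays only, and its fed values lie below detection. Fed replicate 1 lay level with fasted replicate 4, and the lowest level that counted as detected was higher there (-3.45) than on fasted replicate 4 (-3.84). Of all probes, 0.142% were detected on all 4 fasted and no fed arrays, against 0.00507% the other way round, so detection on fasted arrays alone was the commoner of these patterns. Of 16 listed genes of the crypt niche mesenchyme, 11 were tested, 4 higher and 7 lower in fasted mice, with a median of -0.08 (-0.16 to 0.14 with 1 array left out). The 2 with the smallest unadjusted p were Foxl1, the transcription factor of subepithelial telocytes, and Grem1, a secreted BMP inhibitor. Foxl1 levels were -2.80, -3.40, -3.08 and -3.63 in fasted mice and -4.23, -5.82, -4.57 and -3.99 in fed mice. Like Pdgfra it was detected on all 4 fasted and no fed arrays and passed the filter through the fasted arrays only. A bound of at least 1.46-fold higher in fasted mice is thus what it gives, and that bound was not tested. Grem1 was detected on 3 fasted and 1 fed arrays, with a log2 difference of 1.05 (SE 0.76).

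Sparc, a collagen-binding glycoprotein, had levels of 4.45, 3.96, 4.62 and 4.09 in fasted mice, and 5.66, 5.11, 4.99 and 3.71 in fed mice (log2 difference -0.59, SE 0.36). Its groups overlapped only through fed replicate 4. Dcn, the collagen-binding proteoglycan decorin, averaged 3.65 ± 0.40 in fasted and 3.71 ± 0.66 in fed mice (SD, n = 4 each), and Vim, the intermediate filament of mesenchymal cells, 0.83 ± 0.51 in fasted and 0.75 ± 0.62 in fed mice (SD, n = 4 each). Postn, Mgp and Fbn1, which encode periostin, matrix Gla protein and fibrillin, differed by -0.34, -0.33 and 0.22. Lum, the proteoglycan lumican, was the reverse of Pdgfra: its levels were -4.63, -4.77, -4.15 and -6.16 in fasted mice and -2.26, -2.16, -2.55 and -6.16 in fed mice. It was detected on no fasted and 3 fed arrays, so it was not tested, and was at least 1.76-fold higher in fed mice by its bound. A probe detected on no fasted and 3 or more fed arrays made up 0.033% of all probes.

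**Figure D4:**
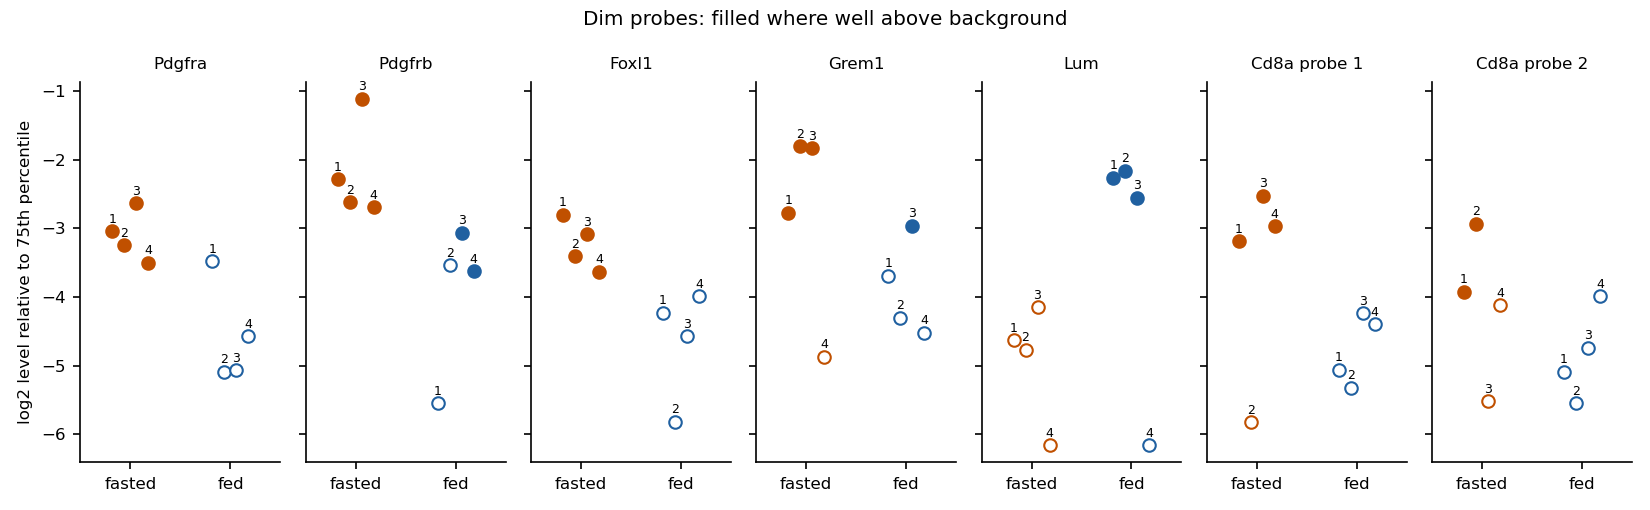
Levels (log2 relative to the 75th percentile of the array) of dim probes on each array, fasted left and fed right; numbers are replicates, and filled points were well above background. Pdgfra and Foxl1 are filled on all fasted and no fed arrays, Lum on 3 fed arrays and no fasted array, and the Cd8a probes on 3 and 2 fasted arrays.

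Among 22 listed genes of collagens and basement membrane, 20 were tested, of which 18 were lower in fasted mice (90.0%, against 55.5% of all genes), with a median of -0.54 and no gene past the adjusted threshold. Col15a1, a basement membrane collagen, had levels of -1.23, -2.40, -1.67 and -1.31 in fasted mice and 0.38, -0.33, -0.89 and -1.07 in fed mice (log2 difference -1.18, SE 0.40). Its groups did not overlap. The list varied with the arrays set side by side. Among the 5 arrays with over 60% of probes detected, 12 of 20 were lower (median -0.06). Among the other 3, of which 1 is fasted, 14 of 20 were lower in the list (median -0.78). Within the shared slides its median was -0.61, -1.05 and 0.15. Leaving out 1 array at a time gave 15 to 18 of 20 lower, with medians of -0.30 without fasted replicate 2, -0.35 without fed replicate 1, -0.36 without fed replicate 3 and -0.83 without fed replicate 4.

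The 8 smooth muscle genes encode the contractile machinery. Myh11, the smooth muscle myosin heavy chain, had levels of 2.53, 1.87, 1.06 and 1.04 in fasted mice, and 1.00, 1.08, 1.26 and 0.43 in fed mice. The log2 difference of 0.68 (SE 0.30, limma adjusted p = 0.788) came mostly from fasted replicates 1 and 2, labelled male, and the groups overlapped. Des, the muscle intermediate filament desmin, differed by 0.37 (SE 0.26) and was likewise highest on fasted replicate 1, at 1.41. Acta2, smooth muscle actin and also an actin of myofibroblasts, averaged 2.26 ± 0.33 in fasted and 2.34 ± 0.51 in fed mice (SD, n = 4 each). Tagln, the actin-bundling protein transgelin, was 1.56, 1.86, 0.06 and 1.45 in fasted mice and 1.74, 1.5, 1.93 and 1.64 in fed mice, so that fasted replicate 3 alone stood low. Cnn1, the actin-binding calponin, was at -1.51 on the same array, against a mean of 0.27 ± 0.46 in fed mice (SD, n = 4). Actg2, Mylk and Myl9, which encode enteric actin, myosin light chain kinase and a regulatory light chain of myosin, differed by 0.08, 0.08 and -0.11. Of 12 further smooth muscle and pericyte genes, 10 were tested, 4 higher and 6 lower in fasted mice, with a median of -0.08. That median was 0.03 with quantile scaling and -0.16 to 0.10 with 1 array left out. With probes that hold a CA repeat left out it was 0.05, with 5 higher and 5 lower.

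Serum response factor binds the CArG box in promoters of many smooth muscle genes. The Myl9 promoter is shown because it was the 1 member promoter found to hold the box. Levels of Myl9, highest on fasted replicate 1 (4.37) and lowest on fed replicate 4 (2.38), played no part in that choice. A search of both strands of the RefSeq promoter windows (250 bases before each start) found the box in 1 of 5 smooth muscle members with a window, in 1 of 30 members with a window in all, and in 1.63% of 32851 windows. The capitals mark the box, which starts 161 bases before the start site; the stretch is chr2:156775243-156775372 (GRCm38.p6), plus strand. A match describes the letters only.
Myl9 promoter: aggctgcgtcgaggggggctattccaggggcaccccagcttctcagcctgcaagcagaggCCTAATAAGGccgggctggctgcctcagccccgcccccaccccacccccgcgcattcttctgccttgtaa

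Endothelial genes were lower on average in fasted mice for 7 of 9 tested, within a range of -0.68 to 0.06. With the mean of passing probes the count was 6 of 9 (median -0.14). Flt1 and Kdr are the VEGF receptors, and Tek is the angiopoietin receptor. Tek levels were -0.64, -0.10, -1.26 and 0.08 in fasted mice, and 0.11, -0.65, 0.54 and 0.71 in fed mice (log2 difference -0.65, SE 0.39, limma adjusted p = 0.788). Within the shared slides its difference was -0.75, -0.64 and -0.62, although the groups overlapped. Flt1 averaged -1.42 ± 0.75 in fasted and -0.74 ± 0.54 in fed mice (SD, n = 4 each), and Kdr 0.36 ± 0.65 in fasted and 0.75 ± 0.52 in fed mice (SD, n = 4 each). Pecam1, the junction protein CD31, was dim, detected on 2 fasted and 3 fed arrays, at -3.89, -1.96, -3.49 and -2.17 in fasted mice and -2.70, -3.69, -3.06 and -2.27 in fed mice. Vwf, Emcn, Eng, Plvap and Esam, which encode von Willebrand factor, endomucin, endoglin, the protein of fenestral diaphragms and a junction adhesion molecule, differed by -0.12, -0.18, -0.14, -0.23 and 0.06. Of 14 further endothelial and lymphatic genes, 10 were tested, and 8 of these were higher in fasted mice (median 0.16). Without fasted replicate 3 the count was 3 higher and 7 lower (median -0.04), and 8 of the 9 members were then lower (median -0.13).

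Several members had more than 1 passing probe, and these probes did not always read alike. Of 10 such genes, 2 had probes of both signs, both of them VEGF receptors. Flt1 differed by -0.68 at its brightest probe (chr5:148465976-148466035, mm9) and by 0.32 and 0.58 at the other 2 probes, and Kdr by -0.39 at its brightest and 0.30 at its other probe. For the muscle kinase gene Mylk, the brightest probe (chr16:34953958-34954017, mm9) differed by 0.08 (SE 0.33), whereas the other (chr16:35001266-35001325, mm9) was -2.04, -2.24, -1.97 and -3.11 in fasted mice and -3.97, -3.56, -4.07 and -3.47 in fed mice. That probe separated the groups, as did 4.97% of all genes at their brightest passing probe, and was detected on 4 fasted and 1 fed arrays. Its log2 difference was 1.42 (SE 0.41, limma adjusted p = 0.752 with each probe tested on its own). Most of the fed values behind that difference were not detected. When every probe was tested on its own, 6.38% of 24459 probes had an unadjusted p under 0.05 and 0 passed the adjusted threshold.

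**Figure D5:**
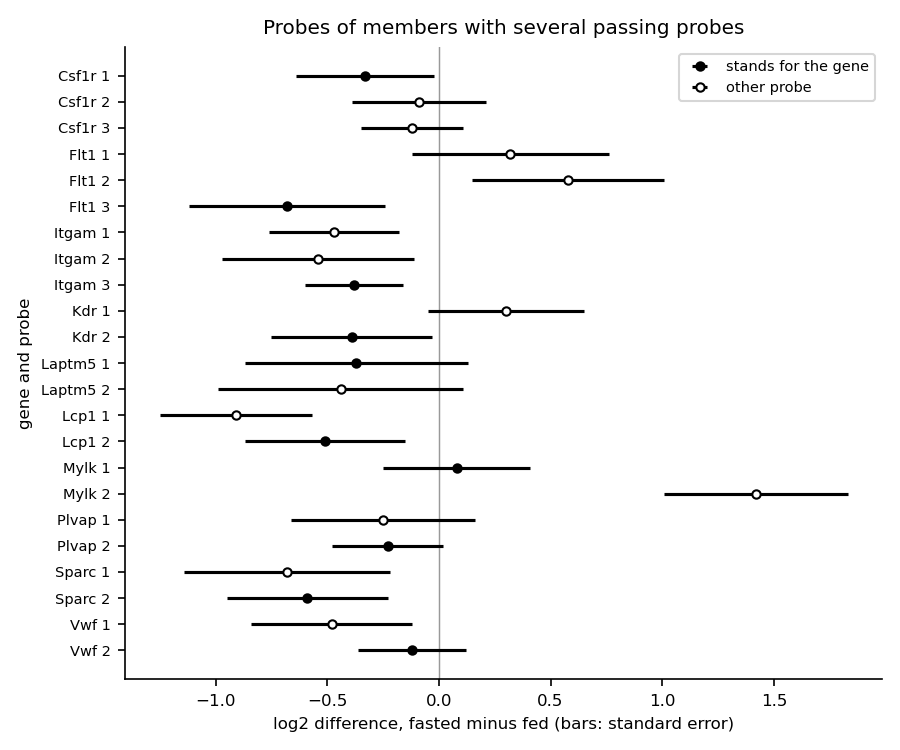
Log2 difference, fasted minus fed, with its standard error, for each passing probe of the 10 genes with several; filled points are the probe that stands for the gene. Flt1 and Kdr have probes on both sides of 0, and Mylk has 1 probe at 0.08 and another, detected on 1 fed array, at 1.42.

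The lymphocyte genes were few. Gzma, the granzyme abundant in intraepithelial T cells, had levels of 1.85, 0.52, 1.51 and 2.00 in fasted mice, and -2.38, 1.80, 1.00 and 0.11 in fed mice (log2 difference 1.33, SE 0.80, limma adjusted p = 0.788). The groups overlapped, and fed replicate 1 stood far below the rest. Without fed replicate 1 the difference was 0.47. Cd3e, a chain of the T cell receptor complex, averaged -0.44 ± 0.71 in fasted and -0.18 ± 0.35 in fed mice (SD, n = 4 each). Cd8a, the CD8 chain carried by most intraepithelial T cells, was detected by at least 1 of its 2 probes on all 4 fasted arrays and on no fed array. The first probe (chr6:71323885-71323944, mm9) was detected on fasted replicates 1, 3 and 4, and the second on fasted replicates 1 and 2. The bound of the first was at least 1.1-fold higher in fasted mice, whereas the second gave no bound in that direction. The 2 probes thus did not mark the same arrays, and neither passed the filter. Probes detected on 3 or 4 fasted and no fed arrays made up 0.561% of all probes. Of 15 further T cell and cytotoxic genes, 11 were tested, 6 higher and 5 lower in fasted mice, with a median of 0.10 (-0.11 without fed replicate 1, 0.26 without fed replicate 2). Of 11 B and plasma cell genes, 8 were tested, 2 higher and 6 lower, with a median of -0.36. Of these 8, 6 were lowest on fasted replicate 3; the median was -0.06 without that array, -0.62 without fasted replicate 4 and -0.02, with 4 of 8 lower, with slide as a fixed block.

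Myeloid genes were lower on average in fasted mice for 6 of 7. C1qa, C1qb and C1qc encode the 3 chains of complement C1q, made in the gut mainly by macrophages. C1qb levels were 2.46, 1.97, 2.79 and 2.34 in fasted mice, and 3.20, 2.84, 2.76 and 2.30 in fed mice (log2 difference -0.39, SE 0.26). C1qa averaged 0.74 ± 0.50 in fasted and 0.75 ± 0.57 in fed mice (SD, n = 4 each), and C1qc differed by 0.14 (SE 0.50), so the 3 chains, each above its own mean on fasted replicate 3, gave no common difference. Tyrobp and Fcer1g are signalling adaptors of myeloid receptors. Tyrobp was at 2.44, 1.72, 3.47 and 2.40 in fasted mice and at 3.09, 3.25, 2.91 and 2.61 in fed mice, with both the highest and the lowest array in the fasted group. Fcer1g was arranged likewise, from 0.63 on fasted replicate 2 to 2.52 on fasted replicate 3. Csf1r, the macrophage growth factor receptor, read unlike at its 3 probes. The brightest was at 4.09, 4.63, 3.29 and 4.60 in fasted mice and 4.28, 4.32, 4.53 and 4.81 in fed mice, lowest on fasted replicate 3. A second was at 1.74, 1.53, 2.21 and 1.69 in fasted mice and 2.16, 2.05, 1.56 and 1.88 in fed mice, and both it and the remaining probe were highest on fasted replicate 3 and fed replicates 1 and 2.

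Itgam encodes the integrin chain CD11b, and the sequence of the probe that stands for it is shown because of how it begins. Its 3 probes are 60 bases long; the first 30 bases of each are given as on the array, with a run of CA repeats in capitals.
Itgam brightest probe: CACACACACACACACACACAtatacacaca
Itgam second probe: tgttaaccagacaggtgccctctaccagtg
Itgam farther probe: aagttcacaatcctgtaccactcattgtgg
The brightest probe (chr7:135261755-135261814, mm9) starts with a 20-base repeat, and the other 2 (chr7:135212140-135212199 and chr7:135260275-135260334) hold none. Over the whole array, 106 probes hold at least 16 bases of such a repeat on either strand, and 99.1% of them were detected on all 8 arrays, against 45.7% of all probes. Its level was 7.14 ± 0.37 in fasted and 7.53 ± 0.27 in fed mice (SD, n = 4 each), and whether that signal comes from Itgam alone was not tested. The difference was -0.38 (SE 0.22) at that probe and -0.47 and -0.54 at the other 2, none past the adjusted threshold.

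Of 15 further macrophage and dendritic cell genes, 12 were tested, 5 higher and 7 lower in fasted mice, with a median of -0.07 (-0.18 without fed replicate 3, 0.09 without fed replicate 1). The 2 with the smallest unadjusted p were both higher. Mertk, a receptor for engulfing dying cells, was 0.67, 0.17, -1.13 and -0.25 in fasted mice and -0.01, -0.90, -1.48 and -1.37 in fed mice (log2 difference 0.80, SE 0.31, limma adjusted p = 0.788). Cx3cr1, the fractalkine receptor of resident gut macrophages, differed by 1.07 (SE 0.46). Both overlapped between groups. They were higher in fasted mice within each of the 3 shared slides, by 0.68, 1.65 and 1.12 for Mertk and 0.58, 2.26 and 0.46 for Cx3cr1. The largest values, 1.65 and 2.26, set fasted replicate 2, labelled male, against fed replicate 3, labelled female. All 7 MHC class II genes, whose products present antigen on myeloid cells, B cells and also enterocytes, were lower on average in fasted mice, with a median of -0.44, and within the shared slides the median was -0.77, -0.46 and 0.04. Of the 7, 5 were highest on fed replicate 2, and without that array 4 of 7 were lower (median -0.08); without fasted replicate 1 the median was -0.23, without fasted replicate 3 it was -0.76, and without fed replicate 3 it was -0.69. Of 12 granulocyte and mast cell genes, 7 were tested, 4 higher and 3 lower in fasted mice, with a median of 1.21 that was 0.28 without fed replicate 1, 0.69 without fasted replicate 1, 0.39 with normexp and 0.16 with slide as a fixed block. The neutrophil gene Ly6g was at -2.02, -1.82, -1.22 and -2.0 in fasted mice and at -5.69, -1.49, -2.38 and -2.34 in fed mice, where fed replicate 1 alone stood apart.

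The pan-leukocyte genes were lower on average in fasted mice for 4 of 5. Laptm5, a lysosomal protein of blood cells, was at 0.91, 0.32, 2.39 and 0.67 in fasted mice and at 2.17, 1.80, 1.09 and 0.70 in fed mice. Cd52, a small surface glycoprotein of leukocytes, was at 1.74, 1.38, 2.94 and 1.58 in fasted mice and at 2.64, 2.68, 1.85 and 1.61 in fed mice. In both, fasted replicate 3 was the highest array, fasted replicate 2 the lowest, and fed replicates 1 and 2 came next to the top. Lcp1, the actin bundler L-plastin, differed by -0.51 (SE 0.37) at its brightest probe and -0.91 at its other, and Coro1a, an actin-binding coronin, by -0.02 (SE 0.36). Ptprc, the common leukocyte antigen CD45, did not share the arrangement: it was at -1.88, -1.26, -1.78 and -1.18 in fasted mice and at -1.28, -1.39, -2.15 and -1.47 in fed mice. S100b, a calcium-binding protein of enteric glia, was detected on 2 fasted and 3 fed arrays, at -2.26, -2.29, -3.94 and -4.87 in fasted mice and -2.05, -3.12, -2.09 and -6.19 in fed mice.

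Whether the feeding difference itself differed between labelled males and females was tested as an interaction. No gene among 19528 passed the adjusted threshold in limma (0.00% called), and 3.20% had an unadjusted p under 0.05. Of the further lists, 5 of 7 MHC class II genes and 2 of 9 lower crypt genes had such a p, and at most 1 gene in each other list. Among the 41 genes 4 did, all of leukocytes: Fcer1g, Laptm5, Cd52 and Lcp1, with a male minus female difference of -1.58, -2.01, -1.63 and -1.48 (limma adjusted p = 0.758 for each). These 4 are among the 8 that were higher on each of the 3 arrays with under 60% of probes detected, of which the fasted one is labelled female and the fed ones male. The detected share and this contrast cannot be told apart with these arrays. Some genes were called without fasted replicate 4, where fasted replicate 3 alone stood for labelled fasted females. The same was so without fed replicate 2, where fed replicate 1 alone stood for labelled fed males. Calls that rest on 1 array for a labelled sex in a group are not read further. Fed replicate 4, whose transcripts go against its sex label, enters this test as female.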

How the data were processed

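Cy5-labelled cDNA of captured lower crypts from each mouse was hybridised to its own Agilent array, as the labels' protocols state. Spot intensity in the deposited files is linear and in build mm9, and the headers name Agilent Feature Extraction 11.5.1.1 as the authors' software. A deposited matrix by the authors gives log2 values, whose scaling and centring stay unknown; its ranks within each array followed the scanner signal, and its column medians were between 7.73 and 8.33. No pair of arrays among 28 held identical values. The submitters call the arrays biological replicates.

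Control spots and outlier spots were left out, no spot was saturated, and spots of a probe were averaged, leaving 39429 probes. Names came from RefSeq (GRCm38.p6, names only) through accessions for 27655 probes, and 11774 kept the name in the files. Whether a probe lies in an exon or a UTR is not analysed here. Processed signals were put on the log2 scale and the 75th percentile of the array was taken off. Each gene with a probe detected (well above background) on 4 or more of 8 arrays was tested, through its brightest such probe, with limma 3.58.1 in R 4.3.3 (lmFit, eBayes with a trend, group and labelled sex as terms) and Benjamini-Hochberg adjustment at 0.05, and the code was tested on simulated data. Medians of a class carry no p. A bound sets the bright group's mean against the dim group's own level or the lowest detected level of the array, whichever was higher. It describes group means under the main processing only. The number of arrays limits the precision. Members and lists were chosen with earlier results of these data known. The genes to name were the 3 tested members of each class but glia with the smallest unadjusted p, a fixed set of 13 markers (Vim, Dcn, Acta2, Myh11, Pecam1, Cdh5, Ptprc, Cd3e, Cd8a, Gzma, C1qa, Csf1r and S100b), up to 2 genes with the smallest unadjusted p from each further list, and 5 epithelial genes. The remaining members are given as members. Replicate numbers did not pair the arrays, with correlations of deviations of 0.37, -0.47, -0.45 and 0.61 for the 4 numbers. Numbers 1 and 4, with the positive values, also shared a slide. Fasted replicate 2 and fed replicate 3, which shared a slide under unlike numbers, gave 0.54. The main fit holds no slide term. Alternatives covered scaling, background, filter, probe rule, sex term, slide, replicate number and single arrays. The split by detected share, the probes with repeats left out, and the joint removal of fasted replicate 3 and fed replicate 4 were chosen after seeing the data.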

Additional observations from a re-analysis of the deposited data

Results flagged for a closer look

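The lymphocyte level on fasted replicate 4 was 0.89, far from 0.09, 0.05 and 0.06 on the other fasted arrays; the gap was 0.952 of the range of the group, above Dixon's critical value for 4 samples. That level is the median of 2 genes, Gzma and Cd3e, both highest on that array. It was the only level to stand apart among 64 groups of 4 checked, and chance marks about 1 in 20 such groups. Its cause was not tested.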

How the results depend on the processing

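No gene of those tested was called for feeding under any of 21 alternatives, the lowest adjusted p being 0.114 with slide as a fixed block. At an unadjusted limma p of 0.05, 1161 genes passed in the main fit and 2555 with slide as a fixed block. With slide as a random block (consensus correlation 0.701) 3075 passed. The class medians kept within 1 SD between arrays under all 21. This is a loose limit, as that SD was 0.53 for fibroblast and matrix and 0.76 for lymphocyte genes, larger than their medians. Small medians turned sign: fibroblast and matrix genes ran between -0.35 and 0.12, smooth muscle between -0.22 and 0.26. The others kept their sign: endothelial genes ran between -0.32 and -0.10, lymphocyte between 0.06 and 0.94, myeloid between -0.51 and -0.19 and pan-leukocyte between -0.82 and -0.05. Pdgfra was 0.38 with normexp and 2.26 in the authors' matrix, and Pdgfrb 0.65 and 2.99. The replicate block gave 0 calls; the replicate numbers did not pair the arrays, and no sample set was crossed. Of 25 named members, 15 kept their sign under every alternative that gave a value and 10 did not. With quantile scaling Dcn was 0.043 and S100b -0.014, and with normexp S100b was -0.032. In the authors' matrix Dcn was 0.022 and Vim -0.017. With slide as a fixed block Acta2 was 0.057, and with slide as a random block Acta2 was 0.004 and Pecam1 -0.07. With the mean of all probes Flt1 was 0.076. Without fasted replicate 3 and fed replicate 4 together Vim was -0.348, Csf1r 0.064 and S100b -0.721, while Dcn was -0.466, Acta2 -0.324, Pecam1 0.477 and C1qa -0.512. Leaving out 1 array at a time gave ranges of -0.33 to 0.116 for Dcn, -0.238 to 0.277 for Vim, -0.296 to 0.104 for Acta2, -0.374 to 0.397 for Pecam1, -0.533 to 0.014 for Cd3e, -0.317 to 0.194 for C1qa, -0.518 to 0.008 for Csf1r, -0.145 to 0.225 for Ptprc and -0.74 to 0.901 for S100b. The interaction with labelled sex ran between 0 and 2224 called genes: 2224 without fasted replicate 4, 1 without fed replicate 2 and 0 in each other case. The causes of these turns were not tested. Signal near background limits dim genes, among them Pdgfra, Pdgfrb, Foxl1, Grem1, Fbn1, Lum, Cd8a, Cdh5, Cd79a, Pecam1, S100b and Mcpt1, and the dimmer probe of Mylk.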

Other observations

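Some further lists were read on the same arrays, and none had a gene past the adjusted threshold in limma. Red blood cell genes varied with the array: Hba-a2, a haemoglobin chain, was at 1.96, 3.11, 2.56 and 2.10 in fasted mice, and at 1.20, 2.68, 3.05 and 0.94 in fed mice. Fed replicates 1 and 4 were lowest, and 4 of 5 tested erythroid genes of 7 listed were higher on average in fasted mice (median 0.34). That median was -0.02 without fed replicate 1, -0.04 without fed replicate 4, 0.04 without fasted replicate 2 and 0.79 without fed replicate 3. Hbb-bt, another haemoglobin chain, differed by 1.37 (SE 1.18) and was detected on 4 fasted and 2 fed arrays. Of 12 further genes of glia, neurons and pacemaker cells, 9 were tested, 3 higher and 6 lower in fasted mice, with a median of -0.16 (0.11 without fasted replicate 4, 0.13 without fed replicate 3). Ano1, the chloride channel of interstitial cells of Cajal, differed by 0.52 (SE 0.28), and Elavl4, a neuronal RNA-binding protein, by -0.77 (SE 0.45).

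The remaining genes taken by the rule in the other lists had these differences, fasted minus fed: Mfap5 -1.19 (SE 0.50), Synpo2 0.80 (SE 0.38), Mcam -0.33 (SE 0.17), Sox18 0.56 (SE 0.43), Prox1 0.81 (SE 0.72), Cd7 0.63 (SE 0.44) and Cd247 -0.54 (SE 0.39). The B cell genes Cd37 and Pax5 differed by -0.74 (SE 0.40) and -0.62 (SE 0.45), the MHC class II genes H2-Eb1 and Cd74 by -0.62 (SE 0.39) and -0.47 (SE 0.38). The mast cell protease gene Mcpt1 was at 1.01, -2.32, -0.75 and -5.92 in fasted mice, and at -3.12, -5.40, -5.95 and -2.39 in fed mice, a spread within each group larger than the difference of 2.22 (SE 1.43).

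On the epithelial side, Epcam, an adhesion molecule of all gut epithelium, averaged 3.18 ± 0.27 in fasted and 3.23 ± 0.30 in fed mice (SD, n = 4 each), and Cdh1, E-cadherin, -0.64 ± 0.79 in fasted and -0.48 ± 0.22 in fed mice (SD, n = 4 each). Vil1, the microvillus protein villin, was at 3.57, 3.58, 4.01 and 3.22 in fasted mice, and at 3.11, 2.81, 3.17 and 3.18 in fed mice, without overlap (log2 difference 0.53, SE 0.20). Of 10 lower crypt genes 9 were tested, 4 higher and 5 lower in fasted mice. Lyz1, the Paneth cell lysozyme, differed by -0.28 (SE 0.21). Olfm4, which marks crypt base cells, was at 2.37, 2.09, 1.91 and 0.91 in fasted mice, and at 3.32, 3.20, 2.74 and 2.44 in fed mice, without overlap (log2 difference -1.11, SE 0.24, limma adjusted p = 0.788).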
